A study of Mus musculus with 4 samples.

Results

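The 46 genes described here act in the cell cycle. They were taken by gene symbol, 15 listed for the entry into S phase and DNA replication and 31 listed for mitosis. The mitosis list also holds *Ccna2*, of S phase and G2, and the chromatin protein *Hmgb2*. All 46 are among the 24322 symbols of each library. They give a view of residual proliferation in Müller glial cells after birth. The retinas of 4 mice gave mTFP-positive cells, collected by FACS, and 1 RNA-seq library was made per mouse. Control mice (numbers 7984 and 3911) were Raxflox/WT and *Rax* iCKO mice (numbers 7983 and 3914) were Raxflox/flox. Both groups carried Rlbp1-CreERT2 and R26-CAG-LoxP-mTFP1, both received tamoxifen at P4, and both were harvested at P14. Cre is driven by a promoter fragment of *Rlbp1*, which is active in Müller glial cells and also led to recombination in pigment epithelium, and the labels name the strain as 129S6. The values are FPKM, the fragments on a gene scaled to exon length and to the mapped fragments of the library, so that levels can be compared between genes.

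A dividing cell first copies its DNA and then separates the copies. Cyclin E with its kinase opens S phase, E2F factors switch on the replication genes, the MCM2-7 ring unwinds the DNA, and PCNA holds the polymerases on it. In mitosis, cyclin B with CDK1 starts the division, kinetochores attach the chromosomes to the spindle, and the anaphase-promoting complex (APC/C) lets them part. In the mouse retina, progenitors leave the cell cycle in the days after birth, and Müller glial cells are among the last cells they form. Mature mouse Müller glial cells are normally quiescent. Several replication proteins also serve DNA repair, so their RNA is not in itself a sign of division.

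FPKM of the S phase genes lay well above those of the mitosis genes. The mean FPKM over the 4 libraries was at least 1 for 12 of the 15 S phase genes and for 7 of the 31 mitosis genes. The median of these means was 3.204 FPKM over the S phase genes and 0.503 FPKM over the mitosis genes. Summed over the 15 S phase genes, the level was 118.1 and 143.3 FPKM in control mice 7984 and 3911, and 110.8 and 143.5 FPKM in *Rax* iCKO mice 7983 and 3914. Summed over the 31 mitosis genes, it was 24.2 and 37.3 FPKM in control against 20.9 and 28.4 FPKM in *Rax* iCKO. The genotypes overlapped in both sums, and the mice with close numbers resembled each other more in the S phase sum than the mice of a genotype did. *Pcna* alone made up 51.97 to 77.3 FPKM of the S phase sum, and *Hmgb2* 6.59 to 14.8 FPKM of the mitosis sum.

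**Figure D1:**
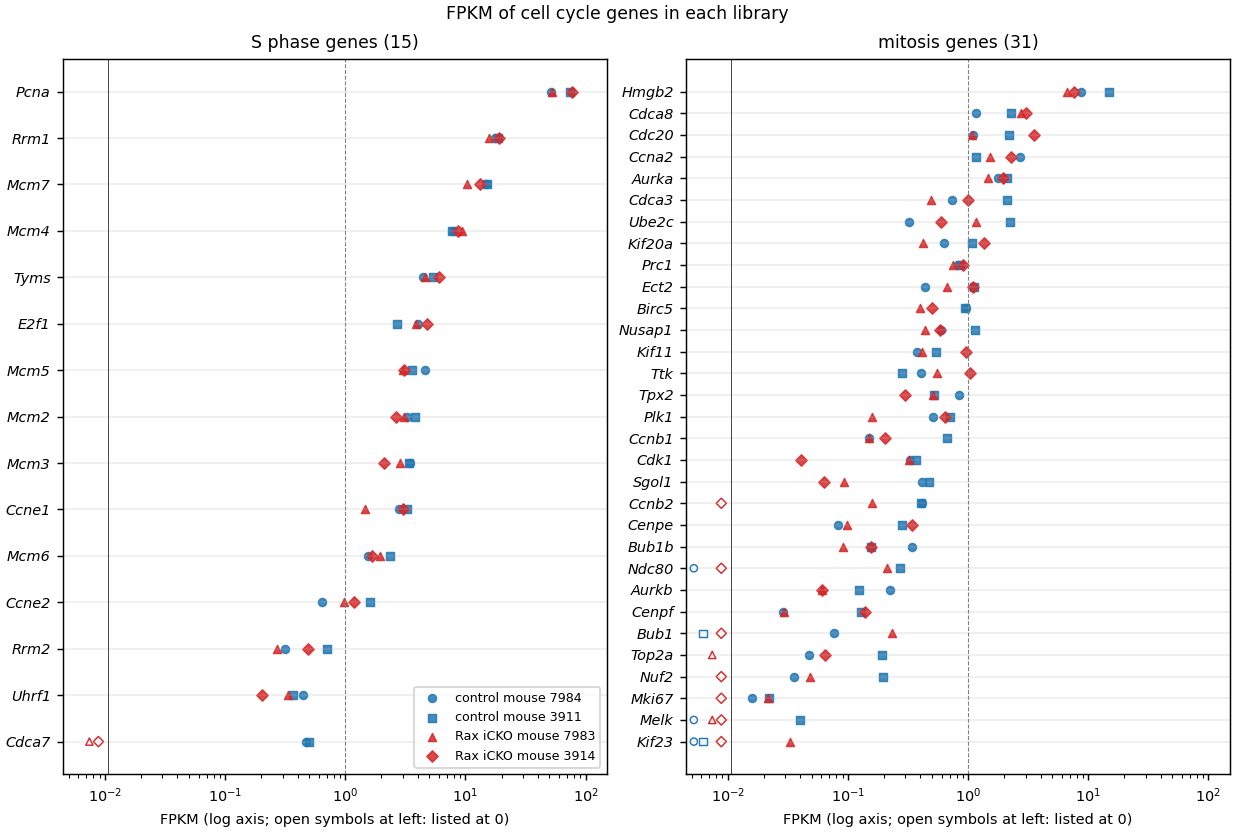
FPKM (log axis) of the 15 S phase genes and the 31 mitosis genes, ordered by mean, with 1 symbol per library, controls in blue and *Rax* iCKO in red, and open symbols at the left for a gene listed at 0. Most S phase genes sit to the right of the dashed line at 1 FPKM, most mitosis genes to its left, and 9 of the 46 genes are listed at 0 in at least 1 library.

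The files hold no read counts. The steps in the low FPKM values and the transcript lengths put the mapped reads at about 12600000 for control mouse 7984 and between 9210000 and 9370000 for the other 3. These depths turn an FPKM into an approximate number of reads, and counting error alone is then large for the lowest genes. All 31 mitosis genes together held about 785, 836, 470 and 654 reads in mice 7984, 3911, 7983 and 3914. Under 10 reads in at least 1 library stood behind 19 of the 31 mitosis genes and 3 of the 15 S phase genes, and 9 mitosis genes had under 10 reads in every library. *Mki67*, which encodes the proliferation antigen Ki-67, occupies bases 135689784 to 135716361 of chromosome 7 (GRCm38, minus strand). It had 0.0159 and 0.0218 FPKM in control against 0.0214 and 0 FPKM in *Rax* iCKO, about 2 reads in each of 3 libraries. *Top2a*, the DNA topoisomerase of dividing cells, was at 0.0469 and 0.193 FPKM in control against 0 and 0.0641 FPKM in *Rax* iCKO. *Kif23*, a motor of cytokinesis, was listed at 0 in 3 libraries and held about 1 read in *Rax* iCKO mouse 7983, and *Melk*, a kinase of proliferating cells, was at 0 in all but control mouse 3911. A difference between genotypes in these 4 genes was not detectable at this depth.

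Promoters of the members were read from RefSeq on GRCm38.p6, as windows from 250 bases before to 50 bases after each start, and matched 40 of the 46 genes. Textbook elements of cell cycle promoters were searched on both strands. They were the CHR element TTTGAA, the CCAAT box, and the E2F sites TTTCCCGC, TTTGGCGC, TTTCGCGC and TTTGCCGC, whose letters can overlap each other. Of the 29 promoters of 27 mitosis genes, 21 (72.4%) held the CHR element, against 1 of the 15 promoters of 13 S phase genes (6.67%) and 17.9% of all 32851 promoters. An E2F site was found in 6 of the 15 S phase promoters (40.0%), in 1 of the 29 mitosis promoters (3.45%) and in 2.26% of all promoters. The CCAAT box was common to both sets, in 11 S phase promoters (73.3%) and 24 mitosis promoters (82.8%), against 37.4% of all. With the 50 bases after the start left out, the CHR element was in 11 of the 29 mitosis promoters (37.9%) and in 15.99% of all promoters. These are matches of letters, not sites shown to be bound.

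**Figure D2:**
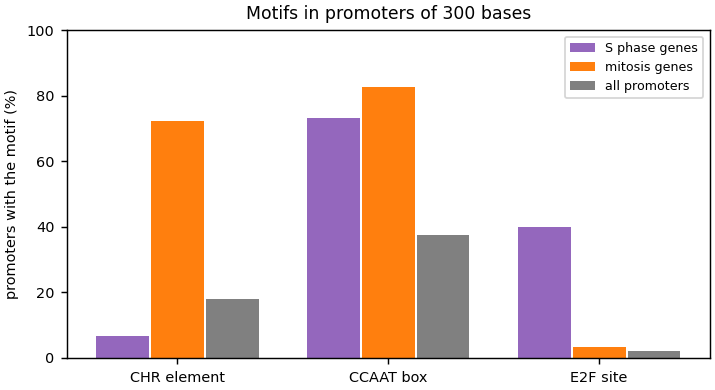
Percent of promoters of 300 bases that hold each motif on either strand, for S phase genes (15 promoters), mitosis genes (29 promoters) and all 32851 promoters. The CHR bar is tall for the mitosis genes (72.4%) and the E2F bar for the S phase genes (40.0%), while the CCAAT bar is above that of all promoters in both.

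The following stretches of 120 bases, each within the 250 bases before the start, show *Mcm5* and *Mcm6* for S phase and *Cdk1*, *Cdc20* and *Hmgb2* for mitosis. *Cdk1* is shown as the exception, the 1 mitosis promoter that holds an E2F site as well as the CHR element and the CCAAT box. The 3 mitosis genes shown all hold the CHR element in these 250 bases, where 11 of the 29 mitosis promoters (37.9%) do. In the same bases 6 of the 29 (20.7%) hold none of the 3 motifs. They are written 5′ to 3′ along the gene, from RefSeq on GRCm38.p6, with the CHR, CCAAT and E2F letters of either strand in capitals (ATTGG is the CCAAT box on the other strand). *Mcm5* is from the plus strand of chr8:75109356-75109475, *Mcm6* from the minus strand of chr1:128359706-128359825, *Cdk1* from the minus strand of chr10:69352928-69353047, *Cdc20* from the minus strand of chr4:118437344-118437463, and *Hmgb2* from the plus strand of chr8:57511723-57511842.
Mcm5: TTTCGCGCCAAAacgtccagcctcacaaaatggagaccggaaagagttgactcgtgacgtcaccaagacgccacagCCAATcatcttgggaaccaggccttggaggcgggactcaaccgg
Mcm6: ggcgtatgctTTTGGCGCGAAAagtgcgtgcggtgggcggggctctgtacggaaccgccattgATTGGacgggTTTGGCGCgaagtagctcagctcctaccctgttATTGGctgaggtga
Cdk1: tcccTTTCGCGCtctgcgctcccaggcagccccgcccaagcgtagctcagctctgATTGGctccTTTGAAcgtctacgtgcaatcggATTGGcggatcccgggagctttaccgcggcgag
Cdc20: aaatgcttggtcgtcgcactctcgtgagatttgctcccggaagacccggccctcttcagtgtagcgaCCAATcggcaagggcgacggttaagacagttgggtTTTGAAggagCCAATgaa
Hmgb2: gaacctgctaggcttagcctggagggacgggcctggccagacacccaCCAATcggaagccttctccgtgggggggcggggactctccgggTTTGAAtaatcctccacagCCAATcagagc

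To assess whether loss of *Rax* changed these genes, *Rax* iCKO was compared with control. *Rax* itself was at 189.1 and 181.4 FPKM in control against 111.4 and 98.4 FPKM in *Rax* iCKO, a ratio of 0.566. This FPKM is over the whole gene and does not separate the floxed part, so it does not measure how much intact *Rax* RNA was left, and the controls carried 1 floxed allele themselves. The fit was limma on log2(FPKM + 1), restricted to the 12363 genes that averaged 1 FPKM or more, with p-values adjusted over all of them, and fold changes on this scale are understated for low genes. Of the 19 members in the fit, 0 had an adjusted p under 0.05, against 3 of all genes (0.0243%), and the smallest unadjusted p among the 19 was 0.0901, for *Hmgb2*. The median log2 fold change was -0.06 over the 12 S phase genes and -0.11 over the 7 mitosis genes tested, and -0.004 over all genes. Without *Rax* iCKO mouse 7983 the medians of the members turned to 0.027 and 0.019. In 5 of the 19 members (26.3%) each *Rax* iCKO library was under each control, and in 2 (10.5%) above, against 14.1% and 15.4% of all genes tested. For any single gene, 2 mice against 2 cannot go below p = 0.33 in a two-sided exact permutation test. The labels do not say that the mice came from separate litters, and the p-values measure only the spread between these 4 libraries.

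**Figure D3:**
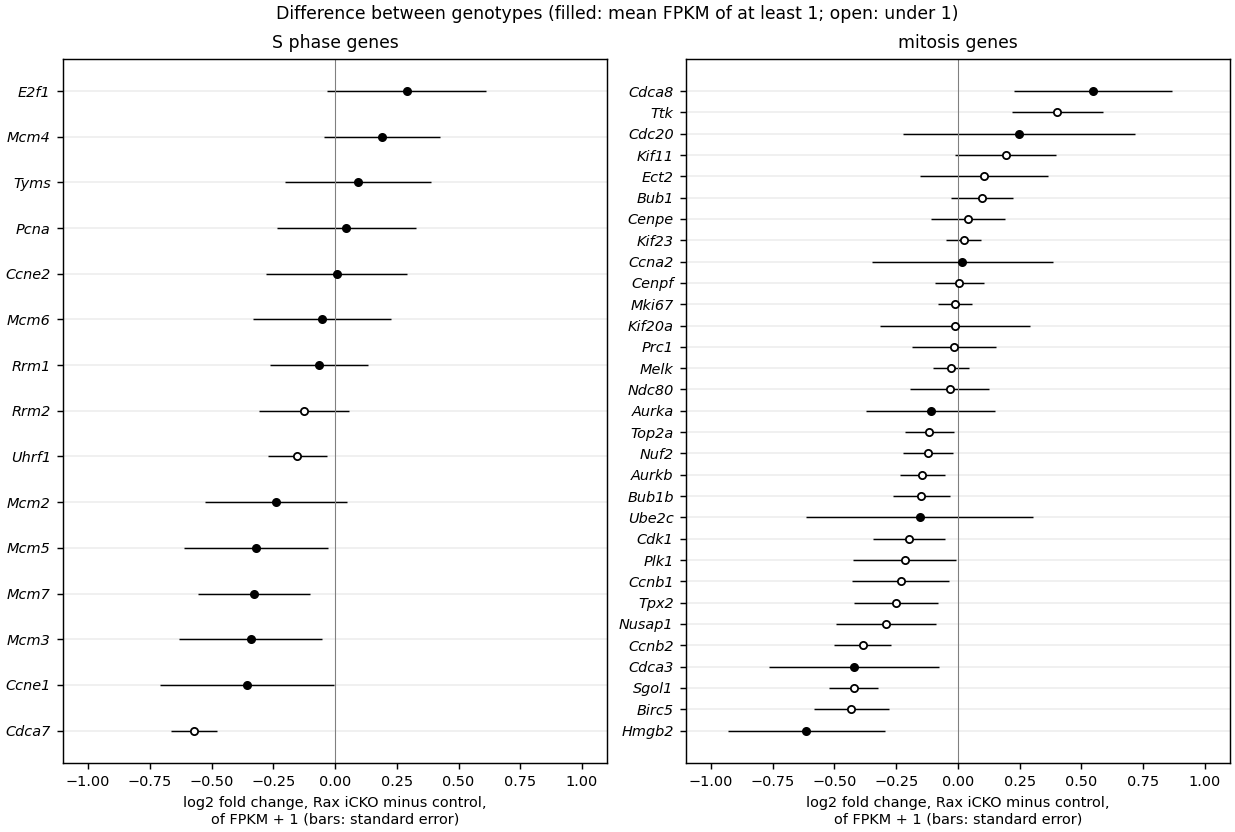
Log2 fold change of FPKM + 1, *Rax* iCKO minus control, with its standard error from limma without the filter on low values, for the S phase genes and the mitosis genes. Filled symbols have a mean FPKM of at least 1 and open symbols a lower mean. In both panels the values lie on either side of 0, with 10 of the 15 S phase genes and 21 of the 31 mitosis genes below it. The medians in this fit were -0.13 and -0.11, against -0.01 over all genes. Values ran from -0.57 for *Cdca7* to 0.29 for *E2f1* among the S phase genes. Among the mitosis genes they ran from -0.61 for *Hmgb2* to 0.55 for *Cdca8*.

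Among the genes of S phase entry, *Ccne1* and *Ccne2* encode cyclin E1 and cyclin E2, and *E2f1* encodes the transcription factor E2F1. *Ccne1* was at 2.77 and 3.25 FPKM in control against 1.45 and 2.995 FPKM in *Rax* iCKO. *Ccne2* was at 0.639 and 1.60 FPKM in control against 0.974 and 1.18 FPKM in *Rax* iCKO. For both cyclins the *Rax* iCKO libraries fell on either side of a control value or between the controls. *E2f1* was at 4.06 and 2.69 FPKM in control against 3.84 and 4.77 FPKM in *Rax* iCKO, which overlap (log2 fold change 0.29, standard error 0.29).

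The MCM genes encode the 6 subunits of the ring that licenses and unwinds DNA. Their sum was 35.5 and 35.9 FPKM in control against 30.5 and 31.5 FPKM in *Rax* iCKO, without overlap of the genotypes. *Mcm7* was the most abundant of them, with 14.8 and 15.1 FPKM in control against 10.3 and 13.3 FPKM in *Rax* iCKO. *Mcm5* was at 4.59 and 3.59 FPKM in control against 3.01 and 3.10 FPKM in *Rax* iCKO. Both genes were lower in each *Rax* iCKO library than in each control. *Mcm3* was at 3.45 and 3.37 FPKM in control against 2.88 and 2.12 FPKM in *Rax* iCKO. *Mcm2* was at 3.27 and 3.84 FPKM in control against 3.07 and 2.64 FPKM in *Rax* iCKO. The *Mcm2* groups also did not overlap, but the difference in log2(FPKM + 1) between mice 7983 and 7984 was only -0.07. *Mcm4* went the other way, with 7.83 and 7.69 FPKM in control against 9.31 and 8.67 FPKM in *Rax* iCKO. *Mcm6* was at 1.54 and 2.35 FPKM in control against 1.96 and 1.67 FPKM in *Rax* iCKO, which lie between the controls. The log2 fold changes of the 6 genes ran from -0.34 for *Mcm3* to 0.19 for *Mcm4*, each with a limma adjusted p of 0.9999. The 95% interval of *Mcm7* was -0.90 to 0.24 on the log2 scale and includes 0.

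*Pcna*, which encodes the sliding clamp of the polymerases, lies on the minus strand of chromosome 2 from 132249162 to 132253314. Levels were 51.97 and 74.04 FPKM in control against 53.0 and 77.3 FPKM in *Rax* iCKO, with means of 63.0 ± 15.6 (SD, n = 2) and 65.2 ± 17.2 (SD, n = 2). The *Pcna* values formed pairs by mouse number and not by genotype, and the log2 fold change was 0.04 with a 95% interval of -0.65 to 0.74. *Rrm1*, the large subunit of ribonucleotide reductase, which makes deoxynucleotides, was at 17.5 and 18.8 FPKM in control against 15.8 and 18.9 FPKM in *Rax* iCKO. Its partner *Rrm2*, the subunit whose supply follows S phase, was far lower, at 0.317 and 0.707 FPKM in control against 0.268 and 0.488 FPKM in *Rax* iCKO, about 5 to 13 reads per library. *Tyms*, which encodes thymidylate synthase, was at 4.42 and 5.41 FPKM in control against 4.59 and 6.08 FPKM in *Rax* iCKO. None of these 4 genes separated the genotypes. *Uhrf1*, which carries DNA methylation through replication, was at 0.441 and 0.370 FPKM in control against 0.331 and 0.201 FPKM in *Rax* iCKO, about 6 to 19 reads.

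*Cdca7*, a target of MYC and E2F that takes part in DNA methylation, lies on the plus strand of chromosome 2 from 72476159 to 72486893. It was at 0.472 and 0.498 FPKM in control, about 13 and 10 reads, and was listed at 0 in both *Rax* iCKO libraries. The RNA was thus detected in each control and in neither *Rax* iCKO mouse. In the fit without the filter on low values its log2 fold change was -0.57 (standard error 0.09). That value depends on the pseudocount, since both *Rax* iCKO values are 0. The limma p adjusted over 17865 genes was 0.996, from an unadjusted 0.00157.

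Of the cyclins and kinases of mitosis, *Ccna2* and *Aurka* were the most abundant. *Ccna2*, cyclin A2 of S phase and G2, was at 2.71 and 1.15 FPKM in control against 1.51 and 2.26 FPKM in *Rax* iCKO. *Aurka*, the Aurora A kinase of the spindle poles, was at 1.76 and 2.10 FPKM in control against 1.47 and 1.96 FPKM in *Rax* iCKO. Both overlapped between the genotypes. *Cdk1*, the kinase that starts mitosis, was at 0.325 and 0.364 FPKM in control against 0.319 and 0.0403 FPKM in *Rax* iCKO, so that its difference came mainly from mouse 3914. *Ccnb2*, cyclin B2, was at 0.410 and 0.402 FPKM in control against 0.158 and 0 FPKM in *Rax* iCKO, about 7, 5, 2 and 0 reads. *Ccnb1*, cyclin B1, was at 0.148 and 0.662 FPKM in control against 0.150 and 0.203 FPKM in *Rax* iCKO. The cyclin B1 groups overlapped, and the highest library was control mouse 3911. *Plk1* ranged from 0.159 to 0.699 FPKM and *Aurkb* from 0.0603 to 0.224 FPKM over the 4 libraries, and of these 2 kinases *Aurkb* was lower in both *Rax* iCKO libraries, on 1 read in each.

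The genes of the spindle checkpoint and of the APC/C gave no common direction. *Cdc20*, the activator of the APC/C, was at 1.09 and 2.18 FPKM in control against 1.07 and 3.52 FPKM in *Rax* iCKO. *Ube2c*, its ubiquitin-conjugating enzyme, was at 0.323 and 2.21 FPKM in control against 1.16 and 0.588 FPKM in *Rax* iCKO, about 3 to 16 reads. *Cdca3*, an adaptor in the degradation of WEE1, was at 0.732 and 2.09 FPKM in control against 0.494 and 1.001 FPKM in *Rax* iCKO. For all 3 the spread within a genotype was wide and the groups overlapped. *Ttk*, the checkpoint kinase MPS1, was at 0.407 and 0.279 FPKM in control against 0.548 and 1.03 FPKM in *Rax* iCKO. It was the only member with a mean under 1 FPKM that lay higher in both *Rax* iCKO libraries (log2 fold change 0.40, standard error 0.18, without the filter). *Bub1* was listed at 0 in 2 libraries, 1 of each genotype, and *Bub1b* was between 0.0916 and 0.339 FPKM.

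At the centromere, *Cdca8* and *Birc5* encode borealin and survivin, 2 subunits of the chromosomal passenger complex, and they went in opposite directions. *Cdca8* was at 1.16 and 2.27 FPKM in control against 2.75 and 3.01 FPKM in *Rax* iCKO (a log2 fold change of 0.55, 95% interval -0.24 to 1.33), and it overlaps a gene on the opposite strand. *Birc5* was at 0.962 and 0.941 FPKM in control against 0.395 and 0.501 FPKM in *Rax* iCKO, about 38, 27, 12 and 14 reads. The *Birc5* means were 0.951 ± 0.0146 (SD, n = 2) and 0.448 ± 0.0745 (SD, n = 2), a ratio of 0.471. *Sgol1*, which encodes shugoshin, the protector of centromere cohesion, was at 0.415 and 0.474 FPKM in control against 0.0932 and 0.0630 FPKM in *Rax* iCKO. That is about 18 and 15 reads against 3 and 2 reads, a ratio of means of 0.176. Without the filter, limma gave a log2 fold change of -0.43 (standard error 0.15) for *Birc5* and -0.42 (standard error 0.10) for *Sgol1*, with unadjusted p of 0.0353 and 0.00763 and a limma adjusted p of 0.996 for both. *Cenpe* and *Cenpf*, large proteins of the outer kinetochore, were at 0.0825 to 0.338 FPKM and 0.0287 to 0.138 FPKM, each lower in mice 7984 and 7983 than in mice 3911 and 3914.

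The motors and bundlers of the spindle had means of under 1 FPKM in all 7 cases. *Kif20a*, a kinesin of cytokinesis, was at 0.624 and 1.08 FPKM in control against 0.420 and 1.34 FPKM in *Rax* iCKO. *Kif11*, the kinesin that pushes the spindle poles apart, was at 0.374 and 0.536 FPKM in control against 0.413 and 0.952 FPKM in *Rax* iCKO. Both were higher in the mice numbered 3911 and 3914. *Prc1*, which bundles the midzone, stayed between 0.752 and 0.898 FPKM, and *Ect2*, which places the cleavage furrow, between 0.435 and 1.11 FPKM. *Tpx2*, an activator of Aurora A, was at 0.832 and 0.516 FPKM in control against 0.510 and 0.298 FPKM in *Rax* iCKO. *Nusap1*, a spindle microtubule protein, was at 0.597 and 1.14 FPKM in control against 0.438 and 0.583 FPKM in *Rax* iCKO. *Tpx2* and *Nusap1* did not overlap between the genotypes, but the gap between the nearest mice was small in each.

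*Hmgb2*, a chromatin protein that bends DNA, lies on the plus strand of chromosome 8 from 57511907 to 57515999 and was the most abundant of the 31 mitosis genes. It was at 8.76 and 14.8 FPKM in control against 6.59 and 7.67 FPKM in *Rax* iCKO, about 269, 331, 150 and 172 reads. The means were 11.8 ± 4.26 (SD, n = 2) and 7.13 ± 0.762 (SD, n = 2), a ratio of 0.605, and each *Rax* iCKO library lay below each control. The log2 fold change was -0.61 (standard error 0.30, 95% interval -1.36 to 0.13), with a limma adjusted p of 0.9999. On the scale of log2(FPKM + 1), mouse 7983 minus mouse 7984 gave -0.36 and mouse 3914 minus mouse 3911 gave -0.86. Without control mouse 3911 the fold change was -0.27 and without control mouse 7984 it was -0.96.

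**Figure D4:**
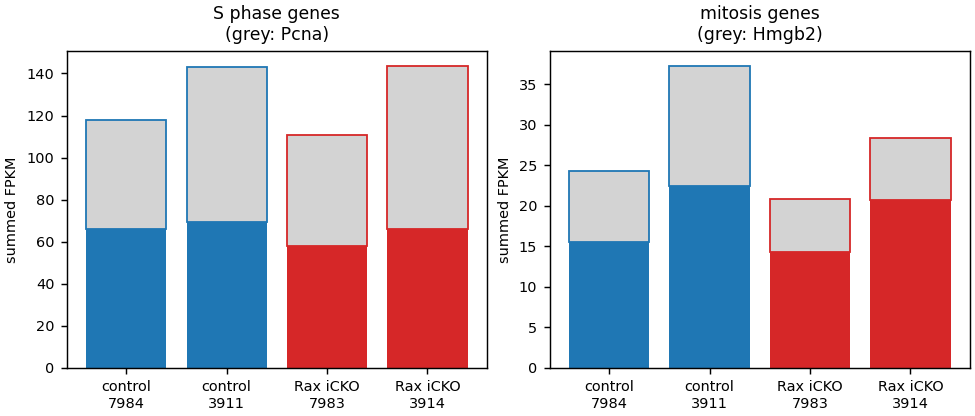
Summed FPKM per library of the 15 S phase genes (left) and the 31 mitosis genes (right), controls in blue and *Rax* iCKO in red, with the most abundant gene of each in grey. Mice 3911 and 3914 have the taller bars within each genotype, and without *Hmgb2* the mitosis sum was 15.5 and 22.5 FPKM in control against 14.3 and 20.8 FPKM in *Rax* iCKO.

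Below a mean of 1 FPKM, 27 members were left out of the fit. In 10 of these 27 (37.0%) both *Rax* iCKO libraries were below both controls, and in 1 (3.70%) above, against 15.5% and 10% of the 5502 genes with a mean between 0 and 1 FPKM. The 10 were *Uhrf1*, *Cdca7*, *Cdk1*, *Ccnb2*, *Aurkb*, *Bub1b*, *Birc5*, *Sgol1*, *Tpx2* and *Nusap1*. Over all 46 members, 4 (*Cdca7*, *Ccnb2*, *Birc5* and *Sgol1*) passed an unadjusted p of 0.05 in the unfiltered fit, 8.70% against 3.49% of all 17865 genes with a value, and 0 passed after adjustment. The genes of this range rest on few reads, and the members are not independent of each other.

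The mouse numbers fall into 2 runs, each with 1 mouse of each genotype, and the labels do not say what the runs are. Among the 19 members with a mean of at least 1 FPKM, 8 (42.1%) were higher in both mice 3911 and 3914 than in both mice 7984 and 7983, and 0 were lower, against 29.1% and 26.8% of all genes tested. The 8 were *Ccne1*, *Ccne2*, *Pcna*, *Tyms*, *Rrm1*, *Aurka*, *Cdc20* and *Cdca3*. This comparison was added after the values were seen.

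Further genes of replication and mitosis were listed by function. Of 38 other replication genes, 29 were tested and 0 passed, with 2 higher (6.90%) and 4 lower (13.8%) without overlap, against 15.4% and 14.1% of all genes tested. The most abundant were *Rpa1*, a subunit of the single-strand binding protein RPA, at 144.1 and 279.9 FPKM in control against 186.2 and 260.4 FPKM in *Rax* iCKO, and *Rfc2*, a subunit of the clamp loader, at 46.5 and 51.2 FPKM against 37.4 and 40.3 FPKM. *Gins4*, of the helicase cofactor GINS, was at 30.9 and 40.0 FPKM against 27.3 and 35.1 FPKM, and *Rfc3*, also of the clamp loader, at 29.3 and 36.7 FPKM against 27.7 and 35.9 FPKM. Of these 4 genes, *Rfc2* alone did not overlap between the genotypes. Of 40 other mitosis genes, 20 were tested and 0 passed, with 2 higher (10%) and 6 lower (30%) without overlap, against the same 15.4% and 14.1%. After *Spc25*, the most abundant was *Cks1b*, a CDK-binding protein, at 34.6 and 76.4 FPKM in control against 35.6 and 62.8 FPKM in *Rax* iCKO. *Cdc25b*, a phosphatase that activates CDK1, was at 8.01 and 6.99 FPKM against 9.70 and 7.97 FPKM, and *Cks2*, a relative of *Cks1b*, at 7.49 and 10.7 FPKM against 6.24 and 5.67 FPKM. *Cks2* was lower in both *Rax* iCKO libraries, and the other two overlapped. Of 24 genes of the D-type cyclins, G1 kinases, CDK inhibitors, pocket proteins with their E2F and LIN partners, and the APC/C activator *Fzr1*, 23 were tested and 0 passed, with 2 higher (8.70%) and 3 lower (13.04%) without overlap, against 15.4% and 14.1%. *Cdk4*, the partner of the D-type cyclins, was at 125.1 and 164.3 FPKM in control against 113.0 and 146.7 FPKM in *Rax* iCKO, and *Rbbp4*, a histone chaperone that binds RB, at 86.3 and 113.6 FPKM against 82.5 and 94.2 FPKM. *Cdkn1c*, which encodes the CDK inhibitor p57, was at 45.8 and 54.6 FPKM in control against 67.1 and 70.1 FPKM in *Rax* iCKO (a log2 fold change of 0.45 with standard error 0.21, limma adjusted p = 0.9999). In the other direction and larger was *Ccnd1*, cyclin D1, named after its values were seen, at 16.5 and 11.8 FPKM in control against 8.18 and 6.42 FPKM in *Rax* iCKO (log2 fold change -0.86 with standard error 0.27, limma adjusted p = 0.9999). *Ccnd3*, cyclin D3, was at 178.2 and 94.8 FPKM in control against 128.7 and 83.3 FPKM in *Rax* iCKO.

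*Spc25*, from the list of other mitosis genes, stood far above the mitosis genes of both lists in level. It encodes 1 of the 4 subunits of the NDC80 complex, which joins kinetochores to microtubules, together with *Ndc80*, *Nuf2* and *Spc24*. *Spc25* lies on the minus strand of chromosome 2 from 69193895 to 69206194, where GENCODE places no other gene. Its FPKM was 207.2 and 184.3 in control against 112.2 and 146.7 in *Rax* iCKO, about 1395 to 3474 reads. *Spc24* was at 1.64 and 1.41 FPKM in control against 1.66 and 1.31 FPKM in *Rax* iCKO. *Ndc80* was at 0 and 0.269 FPKM in control against 0.212 and 0 FPKM in *Rax* iCKO. *Nuf2* was at 0.0356 and 0.195 FPKM in control against 0.0480 and 0 FPKM in *Rax* iCKO. So the RNA levels of the 4 partners were very unequal in each of the 4 libraries. *Ndc80* was not detected in mice 7984 and 3914, nor *Nuf2* in mouse 3914. Both *Rax* iCKO values of *Spc25* were below both controls, with means of 129.5 ± 24.4 (SD, n = 2) against 195.8 ± 16.2 (SD, n = 2), a ratio of 0.661. On the log2 scale the difference was -0.60 (standard error 0.24), and the limma adjusted p was 0.9999.

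**Figure D5:**
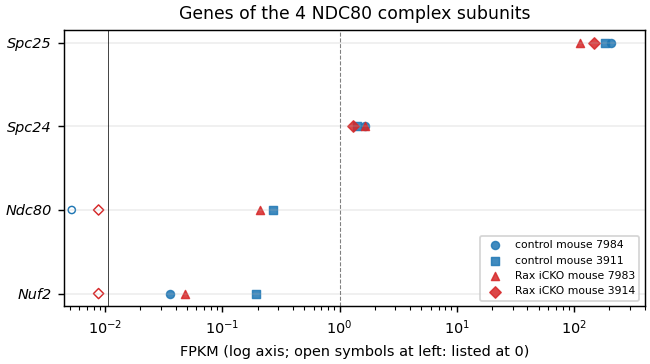
FPKM (log axis) of the genes of the NDC80 complex in each library, controls in blue, *Rax* iCKO in red, and open symbols at the left for a gene listed at 0. *Spc25* lies between 112.2 and 207.2 FPKM, *Spc24* near the dashed line at 1 FPKM, and *Ndc80* and *Nuf2* below 0.3 FPKM or at 0.

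Markers of the sorted cells and of other cells were summed in the same libraries. The 12 Müller glia markers summed to between 10950 and 16040 FPKM, led by *Apoe* and *Rlbp1*, and 0 of the 12 had a mean under 1 FPKM. Their sum was 16040 and 12200 FPKM in control against 10950 and 11040 FPKM in *Rax* iCKO, a ratio of 0.779 without overlap of the genotypes, and 4 of the 12 genes were lower and 0 higher without overlap, against 14.1% and 15.4% of all genes tested. The part of this in the member levels was not tested. The 10 rod markers summed to 1784 and 1907 FPKM in control against 1324 and 1249 FPKM in *Rax* iCKO, and 7 of the 10 were lower in both *Rax* iCKO libraries, against 14.1% of all genes tested. The 12 markers of bipolar, amacrine and ganglion cells summed to 403 and 446.9 FPKM in control against 613.3 and 568.8 FPKM in *Rax* iCKO. This sum is mainly that of *Trpm1*, *Grm6* and *Prkca*, markers of ON bipolar cells, which averaged 253.1, 178.9 and 50.6 FPKM and were each higher in both *Rax* iCKO libraries. Of the 9 genes tested, 3 were higher (33.3%) and 1 lower (11.1%) without overlap, against 15.4% and 14.1% of all genes tested. Their median log2 fold change was -0.01. The lower gene was the ganglion cell marker *Rbpms*, at 3.66 and 3.13 FPKM in control against 2.14 and 1.11 FPKM in *Rax* iCKO. *Vsx1*, another bipolar cell marker, overlapped, at 8.72 and 11.2 FPKM in control against 9.65 and 11.1 FPKM in *Rax* iCKO. *Nefl* and *Sncg* of ganglion cells also overlapped. The 10 microglia markers ranged from 19.3 FPKM in mouse 3914 to 108.3 FPKM in mouse 7983, and the 10 endothelial and pericyte markers from 260.0 FPKM in mouse 3911 to 520.4 FPKM in mouse 7984. The latter range is mainly that of *Kdr*, with 228.1 and 463.6 FPKM in these mice, and 6 of the 10 genes averaged under 1 FPKM. The 10 astrocyte and pigment epithelium markers summed to between 19.3 and 23.0 FPKM. Of all these markers, *Pou4f1* of ganglion cells was the 1 gene at 0 in every library. The 15 markers of retinal progenitors, many of which Müller glial cells share, summed to 1575 and 1459 FPKM in control against 1529 and 1261 FPKM in *Rax* iCKO. The part of other cells in the cell cycle RNA was not tested, and in such bulk samples fewer dividing cells and less RNA per cell cannot be told apart.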

How the data were processed

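The methods of the study give 101-base single-end reads, mapped to mm10 with TopHat, Bowtie2 and SAMtools, whose versions differ between the methods and the submitters' processing notes. The deposited files hold 1 FPKM value per gene symbol and library, from Cufflinks by the study's methods and from Cuffdiff 2.2.1 in the submitters' processing notes; replicates were not pooled. The gene annotation and the use of strand in counting are not given in the sources used here, so genes that overlap on opposite strands (such as *Ccne2*, *Mcm7*, *Ccna2*, *Cdc20*, *Ube2c*, *Cdca8*, *Kif20a*, *Nusap1* and *Prc1*) could share reads. RNA isolation differs between labels and methods.

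FPKM were used as deposited. Groups came from the genotype labels. limma 3.58.1 in R 4.3.3 (lmFit, eBayes with trend) was fitted to log2(FPKM + 1) over genes averaging 1 FPKM or more, Benjamini-Hochberg adjusted across them at a threshold of 0.05, and again without the filter. The script was first run on simulated data, where 194 of 200 genes given a log2 fold change of 2 were called. In that run 25 unchanged genes were called too. Smaller changes, such as those of the members, were not simulated. Depth was estimated from the commonest ratio of low FPKM between libraries and from 290 genes with 1 annotated transcript in GENCODE M21 (GRCm38), with 200 bases taken off the length. The quartiles were 7710000 and 9440000 reads for mouse 7983, and no count test was run. Reads per gene used the longest annotated transcript linked to RefSeq.

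The members, the lists and the alternatives were chosen with earlier results of these data known. FPKM are given in every library for members that average 1 FPKM or more and for the 5 largest changes, and for others that illustrate a role, and for the 4 most abundant genes of each further cell cycle list. Alternatives were each mouse left out, a block for the runs of mouse numbers, a pseudocount of 0.1, a limit of 5 FPKM or none, values set to equal medians or quantile normalized, and a fit with constant prior variance. *Sgol1* was matched to the newer symbol *Sgo1*. *Spc25* and the NDC80 complex were singled out after their values were seen.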

Additional observations from a re-analysis of the deposited data

How the results depend on the processing

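No member passed an adjusted p of 0.05 under any alternative run on all 4 libraries in which it was fitted. The 27 members with a mean under 1 FPKM were fitted only in the run without the filter, so the other runs cannot speak for them. With the block by run of mouse numbers, the smallest limma adjusted p among the 19 members fitted was 0.163 for *Hmgb2*. The value for *Spc25* was 0.0965. The mouse numbers are not shared replicate numbers, and the labels do not say that the runs pair the mice. The block lowered the standard error of *Pcna* from 0.29 to 0.14. Over all genes, 3 were called, 71 with the block, 6 with equal medians, 0 without the filter, 0 at a mean FPKM of at least 5, and 15 to 20 without 1 mouse. Leaving out a mouse leaves 1 library in its genotype, which is assumed to vary like the other genotype, so these calls rest on the spread of the other 2 libraries alone. Members without overlap, 2 higher and 5 lower, became 15 lower without the filter, where more genes are counted, 1 higher with quantile normalization, and 1 higher and 2 lower at a mean FPKM of at least 5. Without 1 mouse they ran from 2 to 7 higher (7 without control mouse 3911 or *Rax* iCKO mouse 7983, 4 without control mouse 7984) and from 5 to 11 lower (11 without control mouse 7984, 10 without *Rax* iCKO mouse 3914), since fewer libraries overlap less. The median log2 fold change of the mitosis genes was -0.61 at a mean FPKM of at least 5, where only *Hmgb2* is left. Without 1 mouse, that of the S phase genes ran from -0.23 (without control mouse 7984) to 0.027 (without *Rax* iCKO mouse 7983), and that of the mitosis genes from -0.24 (without *Rax* iCKO mouse 3914) to 0.019 (without *Rax* iCKO mouse 7983).

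Near 0, some directions turned. *Ccne2* was at -0.026 with quantile normalization and -0.012 with equal medians, and *Ccna2* at -6.3e-04 with quantile normalization. With each mouse left out in turn, fold changes on the log2 scale ran from -0.33 to 0.34 for *Ccne2*, from -0.22 to 0.31 for *Pcna*, from -0.077 to 0.26 for *Tyms*, from -0.32 to 0.81 for *Cdc20*, from -0.25 to 0.15 for *Mcm6*, from -0.37 to 0.41 for *Ccna2*, from -0.79 to 0.49 for *Ube2c*, from -0.19 to 0.058 for *Rrm1* and from -0.24 to 0.019 for *Aurka*, and the other 10 members tested kept their direction but not their size. *Cdca3* ran from -0.84 to -0.0028 (without control mouse 3911), *Ccne1* from -0.71 to -0.0035 (without *Rax* iCKO mouse 7983), *E2f1* from 0.062 (without control mouse 3911) to 0.52, *Hmgb2* from -0.96 to -0.27 and *Cdca8* from 0.25 to 0.85 (without control mouse 7984 and 3911 in turn), *Mcm7* from -0.50 to -0.15, *Mcm3* from -0.50 to -0.18, *Mcm5* from -0.46 to -0.18, *Mcm2* from -0.33 to -0.15 and *Mcm4* from 0.14 to 0.24. The share of mitosis promoters with the CHR element was 37.9% in the 250 bases before the start. The causes were not tested. Low read numbers limit what the mitosis genes can show.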
